A study of Mus musculus with 11 samples.

Results

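The genes described here encode hnRNP, SR and RBM proteins, the large families of nuclear RNA-binding proteins that coat and sort pre-mRNA, in motor-neuron-like cells depleted of TDP-43. They were taken by name: every single gene symbol of the platform annotation that starts with Hnrnp, Hnrp, Sfrs, Srsf or Tra2, or with Rbm and a digit, leaving out Rbm9, Rbm17 and Rbm22. This gave 61 of 15803 genes, namely 14 hnRNP, 18 SR and 29 RBM genes, measured by 722 of 179496 probe sets with 1 gene symbol. A probe set is a small group of array probes for a short stretch of a transcript. The 61 genes had a median of 11 probe sets and at most 27, and 2 of them, Hnrnpc and Rbm8a, had 1. Many symbols are old ones. Of the 61, 38 are current, 22 match 1 current gene through the RefSeq gene table, and Sfrs10 is listed there as a synonym of both Tra2b and Srsf2. Sfrs10 is the usual older name of Tra2b, and Sfrs2, the older name of Srsf2, was measured separately.

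RNA of NSC34 cells, a mouse hybrid of neuroblastoma and spinal cord cells, was measured on 11 arrays. The 4 shTardbp arrays came from cells carrying a hairpin against Tardbp, the gene of TDP-43. The controls were 4 shGFP arrays and 3 shLuciferase arrays, from cells carrying a hairpin against GFP or Renilla luciferase, sequences that mouse cells lack. All 3 groups carried a pSUPERIOR hairpin vector brought in by lipofection, went through puromycin selection and were isolated as stable clones, so no array came from untransfected cells. Whether the 4 or 3 arrays within a group stand for different clones, different cultures or repeats of 1 is not said, so the p-values reflect the spread of these samples alone, and that spread may be technical. The stretch of Tardbp that the hairpin targets is shown because it defines the depleted group; the labels give it 5′ to 3′ as DNA, and it is printed in lower case with nothing marked.
Tardbp hairpin target: tctaagcaaagccccagacgagcct

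The hnRNP proteins bind nascent RNA and often repress the use of an exon, while SR proteins bind exon enhancers through RNA recognition motifs and recruit the spliceosome through their arginine- and serine-rich tails. RBM genes share only an RNA-binding domain, and their proteins range from spliceosome subunits to regulators of translation and ribosome assembly. TDP-43 is itself built like an hnRNP protein, and its loss from the nucleus of motor neurons is a hallmark of amyotrophic lateral sclerosis. Many SR and hnRNP genes contain so-called poison exons, whose inclusion sends the transcript to decay and by which the proteins hold their own levels in check. The title of the series asks how the splicing machinery changes when nuclear TDP-43 is lost.

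The targeted gene was checked first, and no shTardbp array reached a control in Tardbp. Its gene value, the average log2 signal over its 10 probe sets, was 8.88 ± 0.0897 in shTardbp (SD, n = 4), against 9.28 ± 0.146 in shGFP (SD, n = 4) and 9.29 ± 0.0869 in shLuciferase (SD, n = 3). The change of -0.40 (SE 0.0722, limma adjusted p = 0.000713) left 75.8% of the control signal, so the depletion at the RNA level was partial. Array medians lay between 6.82 and 6.92. Of 14 neuron and motor neuron markers, 12 stood above the 25th percentile on every array, and Chat and Mnx1 did not. The array descriptions start with a code letter whose meaning is not given. All shTardbp arrays and shLuciferase 4 carry P, and the other 6 controls carry C, so most of the difference in letter cannot be told apart from the hairpin. When the letter entered the model as a block, Tardbp stood at -0.29 (limma adjusted p = 0.173).

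In shTardbp against the average of both control groups, 15 of the 61 genes passed the threshold of an adjusted p of 0.05. Of these, 6 were higher and 9 lower. The 15 are 24.6% of the 61, beside 30.5% of all genes tested (13.5% higher and 17.0% lower). The share of changed genes was thus not above that of the whole array. The median change was -0.03 on the log2 scale, against 0.007 over all genes, and the median size of a change was 0.131 against 0.113. The hnRNP genes gave 1 higher and 3 lower of 14, the SR genes 2 higher and 2 lower of 18, and the RBM genes 3 higher and 4 lower of 29. The 15 changes were between 1.15-fold and 1.77-fold in size. An array cannot tell fewer transcripts in each cell from fewer cells that make them. The other 46 genes differed by at most 0.28, and the 95% interval of their differences reached a median of 0.163 to either side, so small shifts of these genes were not detectable here.

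**Figure D1:**
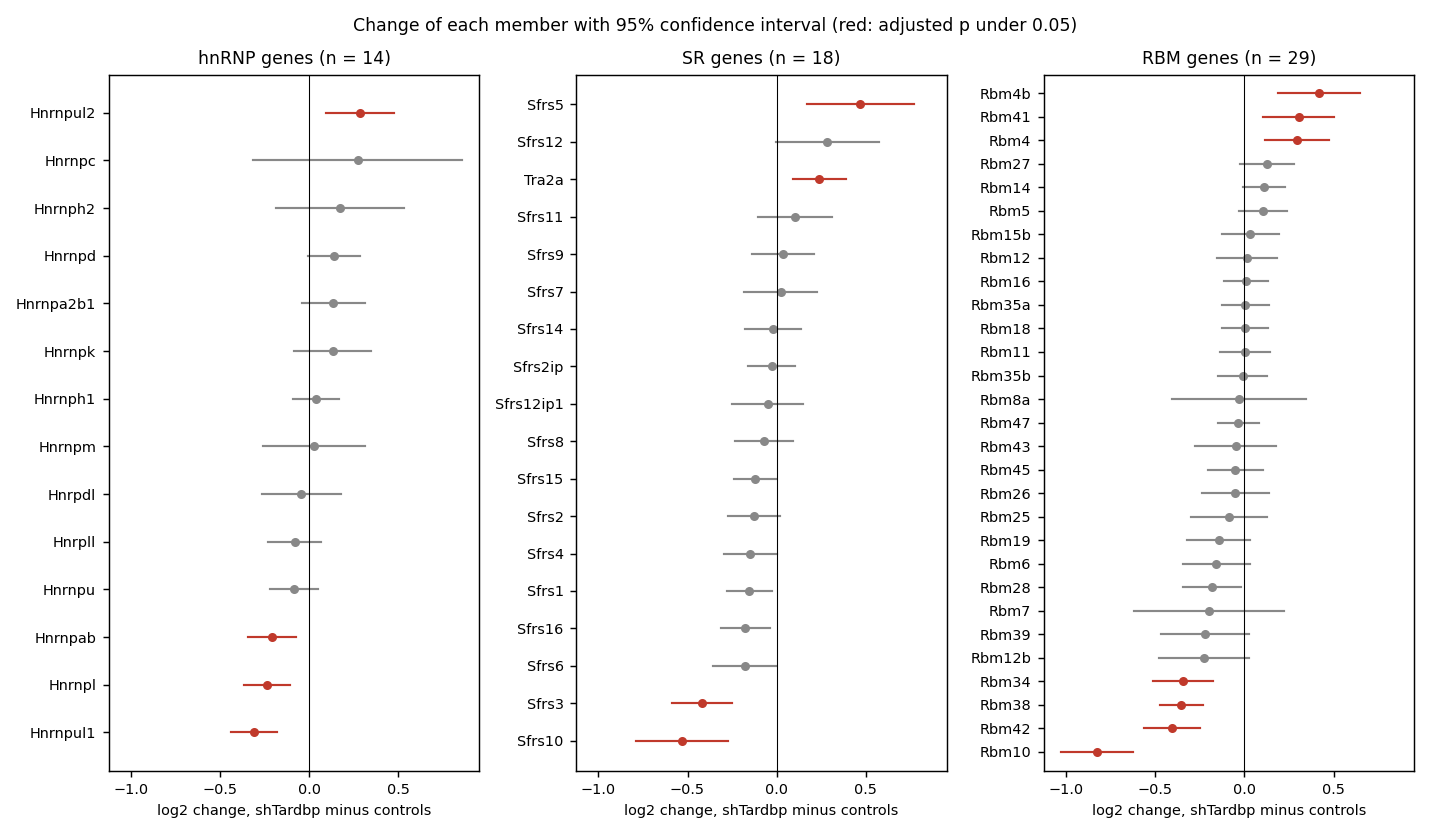
Log2 change of each hnRNP (n = 14), SR (n = 18) and RBM gene (n = 29) in shTardbp minus the mean of both control groups, with its 95% confidence interval from limma. Red marks the 15 genes with an adjusted p under 0.05. Rbm10 lies farthest to the left at -0.83 and Sfrs5 farthest to the right at 0.47.

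The letter and 2 arrays moved these counts. With the code letter as a block 3 of the 61 genes passed, beside 15.9% of all genes: Rbm10 and Rbm38, both among the 15, and Sfrs12ip1 (-0.44, limma adjusted p = 0.0344), which encodes a partner of the SR-related protein Srek1. Within the P arrays only shLuciferase 4 stands against shTardbp. It was also among the controls that chose the 15 genes, so the shared sign of all 15 there is no support, and differences within the P arrays are given below as values with no test. Without shLuciferase 4, 21 of the 61 passed, beside 31.5% of all genes: the 15 and Rbm12b, Rbm19, Rbm28, Sfrs4, Sfrs6 and Sfrs16. Without shTardbp 3, 11 passed, beside 25.9% of all genes. All 11 were among the 15, and the calls of Sfrs5, Tra2a, Hnrnpul2 and Rbm41 were lost.

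The widest fall was that of Rbm10, which encodes a spliceosome-associated protein that promotes the skipping of many exons. Its gene values were 7.51, 7.66, 7.63 and 7.86 in shTardbp, against 8.57, 8.53, 8.54 and 8.22 in shGFP and 8.39, 8.76 and 8.42 in shLuciferase. Every shTardbp array lay below every control. The change was -0.83 (SE 0.0940, limma adjusted p = 1.65e-05), a 1.77-fold drop, and within the P arrays it was -0.76. With the letter as a block it was -0.70 (limma adjusted p = 0.0201).

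Sfrs10, the older name of Tra2b, fell next. Tra2b is an SR-like activator that binds purine-rich enhancers and draws weak exons into the mRNA. Its values were 6.48, 6.82, 7.12 and 6.96 in shTardbp, against 7.60, 7.11, 7.22 and 7.57 in shGFP and 7.47, 7.30 and 7.37 in shLuciferase. The groups overlapped slightly, since shTardbp 3 at 7.12 stood just above shGFP 2 at 7.11. The change was -0.53 (SE 0.120, limma adjusted p = 0.00373), a 1.45-fold drop, and -0.53 also within the P arrays.

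The promoters of Rbm10 and Tra2b, the genes with the widest falls, are set here beside that of Tra2a, the close relative of Tra2b that changed in the opposite direction. They are RefSeq sequences of the GRCm38.p6 assembly, each with 250 bases before and 50 after the gene's start, read 5′ to 3′ along the gene. Rbm10 lies at chrX:20617253-20617552 on the plus strand, Tra2b at chr16:22265956-22266255 on the minus strand and Tra2a at chr6:49264003-49264302 on the minus strand. Capitals mark the CCAAT motif and the GC box GGGCGG, searched on both strands as CCAAT or ATTGG and as GGGCGG or CCGCCC.
Rbm10 promoter: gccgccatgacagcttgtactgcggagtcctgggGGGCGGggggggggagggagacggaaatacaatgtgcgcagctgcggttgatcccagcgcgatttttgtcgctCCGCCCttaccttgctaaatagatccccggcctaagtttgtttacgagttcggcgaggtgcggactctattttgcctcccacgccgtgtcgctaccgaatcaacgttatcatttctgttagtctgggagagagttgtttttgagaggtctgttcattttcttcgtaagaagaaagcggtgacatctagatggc
Tra2b promoter: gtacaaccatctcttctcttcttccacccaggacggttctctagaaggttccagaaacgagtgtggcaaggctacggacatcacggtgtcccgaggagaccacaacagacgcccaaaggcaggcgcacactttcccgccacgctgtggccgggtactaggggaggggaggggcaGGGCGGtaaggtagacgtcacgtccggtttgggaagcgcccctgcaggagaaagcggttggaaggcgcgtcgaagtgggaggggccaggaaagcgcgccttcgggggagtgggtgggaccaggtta
Tra2a promoter: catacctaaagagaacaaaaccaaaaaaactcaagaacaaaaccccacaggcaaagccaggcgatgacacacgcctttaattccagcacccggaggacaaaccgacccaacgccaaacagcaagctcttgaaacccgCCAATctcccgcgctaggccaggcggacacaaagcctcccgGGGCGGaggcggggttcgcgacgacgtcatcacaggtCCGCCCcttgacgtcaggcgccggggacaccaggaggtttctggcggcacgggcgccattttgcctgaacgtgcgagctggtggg
Of the 3, only the Tra2a window held a CCAAT match, which 37.4% of 32851 mouse promoters of this length also hold. The GC box occurred 2 times in Rbm10, 1 time in Tra2b and 2 times in Tra2a, and 35.7% of the promoters hold it at least once. The windows of Rbm10, Tra2b and Tra2a are 53.7%, 62.3% and 60.0% G and C, and hold 22, 22 and 25 CG pairs. These matches describe the letters and are not measured binding sites.

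Among the classical SR genes 1 rose and 1 fell. Sfrs3, now Srsf3, which encodes the smallest SR protein and links splicing to mRNA export, had 9.69, 9.83, 9.95 and 9.93 in shTardbp, against 10.04, 10.31, 10.28 and 10.32 in shGFP and 10.41, 10.33 and 10.15 in shLuciferase. All 4 shTardbp values lay below all controls. It fell by 0.42 (SE 0.0778, limma adjusted p = 0.00087), and its 3 probe sets were all lower.

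Sfrs5, now Srsf5, had 9.50, 9.70, 9.85 and 9.93 in shTardbp, against 9.56, 8.65, 9.29 and 9.31 in shGFP and 9.39, 9.44 and 9.21 in shLuciferase. It encodes an SR protein that promotes the inclusion of exons. The groups overlapped at shTardbp 1 and shGFP 1, and shGFP 2 stood far below the other controls. The rise of 0.47 (SE 0.139, limma adjusted p = 0.0191) was shared by 7 of its 7 probe sets, which changed by 0.28 to 0.60. The call ended without shTardbp 3 or shTardbp 4 (limma adjusted p = 0.0600 and 0.0682).

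The other classical SR genes did not pass. Sfrs1, now Srsf1, the founding SR protein, came closest at -0.15 (limma adjusted p = 0.0668), and its shTardbp values of 9.79, 9.75, 9.85 and 9.80 all lay below the controls, at 9.86 to 10.14. Sfrs2 (-0.13), Sfrs4 (-0.15), Sfrs6 (-0.18), Sfrs7 (0.02), Sfrs9 (0.03) and Sfrs11 (0.10) had adjusted p-values between 0.128 and 0.916. Sfrs8, Sfrs12, Sfrs14, Sfrs15, Sfrs16, Sfrs2ip and Sfrs12ip1 encode SR-related proteins and have since been renamed, and none of these 7 passed, with changes from -0.18 for Sfrs16 to 0.28 for Sfrs12.

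Tra2a rose while Sfrs10 fell. Its values were 9.51, 9.53, 9.57 and 9.48 in shTardbp, against 9.42, 9.16, 9.35 and 9.52 in shGFP and 9.10, 9.25 and 9.26 in shLuciferase, so that only shGFP 5 reached the shTardbp arrays. The rise was 0.24 (SE 0.0688, limma adjusted p = 0.0162). It rested on the way its probe sets were summed: with their median in place of their mean it was 0.02 (limma adjusted p = 0.937). The difference between Tra2a and Sfrs10 on the same array was 2.68 ± 0.258 in shTardbp (SD, n = 4) and 1.92 ± 0.161 in the controls (SD, n = 7). The size of such a difference depends on the probes, so only its shift of 0.76 between the groups is read. The shTardbp arrays, at 2.45 to 3.03, did not overlap the controls, at 1.64 to 2.13 (exact two-sided permutation test, p = 0.00303, the smallest these group sizes allow, 0.00707 adjusted over 7 pairs of relatives). Both genes had already passed in opposite directions on these arrays, so this shift restates those calls and adds no support.

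**Figure D2:**
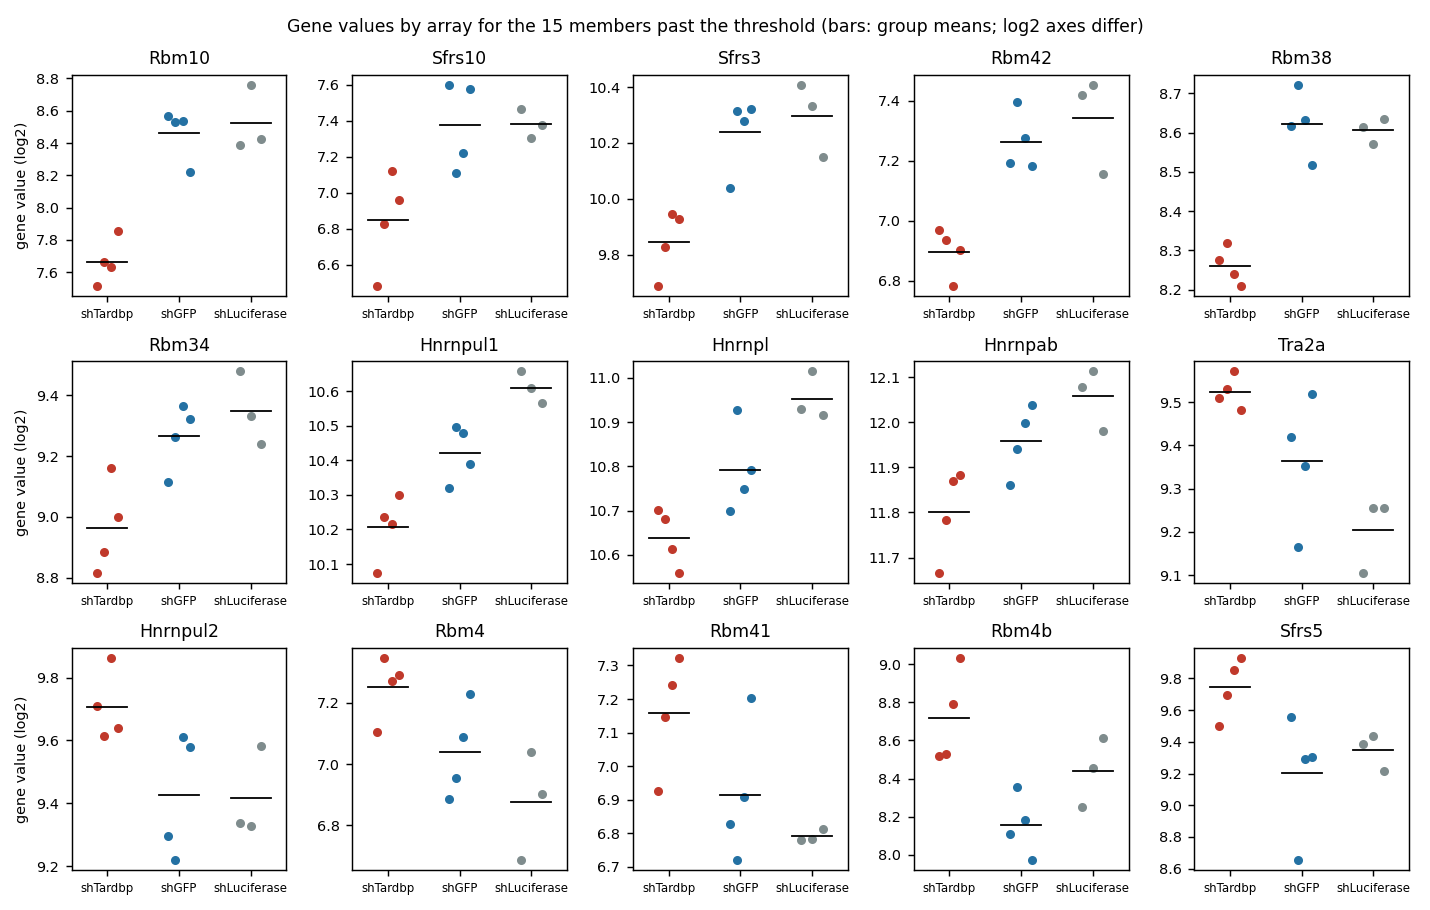
Gene value (log2) of each of the 15 genes past the threshold, 1 panel per gene and 1 point per array, with shTardbp (n = 4) left of shGFP (n = 4) and shLuciferase (n = 3). Bars are group means, and the axes differ between panels. Rbm10, Sfrs3, Rbm42, Rbm38 and Hnrnpul1 have all shTardbp arrays below all controls, and Hnrnpul2 has them all above.

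The RBM genes that fell besides Rbm10 were Rbm42, Rbm38 and Rbm34. Rbm42, which encodes a binding partner of hnRNP K, had 6.97, 6.94, 6.78 and 6.90 in shTardbp, against 7.19, 7.40, 7.28 and 7.18 in shGFP and 7.42, 7.45 and 7.16 in shLuciferase. The groups did not overlap, and 15 of its 15 probe sets were lower. The change was -0.41 (SE 0.0722, limma adjusted p = 0.000655) and -0.26 within the P arrays.

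Rbm38, a target gene of p53 whose product binds the mRNA of the cell cycle inhibitor Cdkn1a, had 8.27, 8.32, 8.24 and 8.21 in shTardbp, against 8.62, 8.72, 8.63 and 8.52 in shGFP and 8.61, 8.57 and 8.64 in shLuciferase. The arrays of each group lay close together and the groups did not overlap. The change was -0.35 (SE 0.0554, limma adjusted p = 0.000234), with -0.37 within the P arrays and -0.39 (limma adjusted p = 0.0221) with the letter as a block. Rbm10 and Rbm38 were the only genes of the 15 that passed under each of the 20 alternatives tried.

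Rbm34, whose product is nucleolar, lay between 8.82 and 9.16 in shTardbp, against 9.12, 9.26, 9.36 and 9.32 in shGFP and 9.48, 9.33 and 9.24 in shLuciferase. Here shTardbp 3 stood above shGFP 1, so the groups overlapped by 1 array on each side. The change was -0.34 (SE 0.0780, limma adjusted p = 0.00384).

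The RBM genes that rose were Rbm4b, Rbm41 and Rbm4. Rbm4 and Rbm4b are close relatives, related to the Drosophila gene lark, that regulate alternative splicing, and in the RefSeq gene table they are direct neighbours on chromosome 19, with Rbm14 next to Rbm4. Rbm4b had 8.52, 8.53, 8.79 and 9.03 in shTardbp, against 8.11, 8.36, 8.18 and 7.97 in shGFP and 8.25, 8.46 and 8.61 in shLuciferase. Only shLuciferase 4, at 8.61, reached into the shTardbp range, and the change was 0.42 (SE 0.108, limma adjusted p = 0.00835), with 0.11 within the P arrays.

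Rbm4 had 7.10, 7.35, 7.27 and 7.29 in shTardbp, against 6.89, 6.95, 7.09 and 7.23 in shGFP and 6.69, 7.04 and 6.90 in shLuciferase. Only shGFP 5 overlapped, and the change was 0.29 (SE 0.0837, limma adjusted p = 0.0152). Its 4 probe sets were unequal: 1 changed by 0.66 and the others by 0.06 to 0.39. Taking their median left 0.07 (limma adjusted p = 0.749). The call also ended without shTardbp 2 (limma adjusted p = 0.0520). The probes of Rbm4 and Rbm4b may share sequence, which was not analysed here, so their values may not be independent. The difference of Rbm4 minus Rbm4b shifted by -0.16 between the groups (exact permutation test, p = 0.421, adjusted 0.461). Rbm14, a coactivator and paraspeckle protein, was 0.11 (limma adjusted p = 0.172).

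Rbm41, a relative of a protein of the minor spliceosome, had 6.93, 7.15, 7.24 and 7.32 in shTardbp, against 6.83, 6.72, 6.91 and 7.20 in shGFP and 6.78, 6.78 and 6.81 in shLuciferase. The groups overlapped, since shGFP 5 stood above shTardbp 1 and shTardbp 2. The change was 0.30 (SE 0.0926, limma adjusted p = 0.0217), and all 10 of its probe sets were higher. Taking their median left 0.29, which missed the threshold (limma adjusted p = 0.0970), as it did without shTardbp 3 or shTardbp 4.

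Rbm5 and Rbm6, the nearest relatives of Rbm10 and direct neighbours of each other on chromosome 9, did not follow it. Their changes of 0.10 (limma adjusted p = 0.257) and -0.16 (limma adjusted p = 0.216) missed the threshold. Rbm5 minus Rbm10 was 1.83 ± 0.0940 in shTardbp (SD, n = 4) and 0.916 ± 0.211 in the controls (SD, n = 7), a shift of 0.92 with no overlap (exact permutation test, p = 0.00303, adjusted 0.00707). Rbm6 minus Rbm10 shifted by 0.67, again with no overlap (exact permutation test, p = 0.00303, adjusted 0.00707). Since Rbm10 had already passed as lower on these arrays, both shifts carry its fall and add no separate support. Rbm5 minus Rbm6 shifted by 0.25 with overlapping groups (exact permutation test, p = 0.0212, adjusted 0.0371). The pairs Rbm12 with Rbm12b (0.27, adjusted 0.216) and Hnrnph1 with Hnrnph2 (-0.13, adjusted 0.461) did not pass the exact permutation test.

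Among the hnRNP genes the relatives Hnrnpul1 and Hnrnpul2, whose proteins resemble hnRNP U and take part in the response to DNA breaks, changed in opposite directions. Hnrnpul1 had 10.07, 10.24, 10.22 and 10.30 in shTardbp, against 10.32, 10.50, 10.48 and 10.39 in shGFP and 10.66, 10.61 and 10.57 in shLuciferase. Hnrnpul2 had 9.71, 9.61, 9.86 and 9.64 in shTardbp, against 9.30, 9.22, 9.61 and 9.58 in shGFP and 9.34, 9.33 and 9.58 in shLuciferase. Neither gene's groups overlapped, though for Hnrnpul2 the nearest arrays were almost level. Hnrnpul1 changed by -0.31 (SE 0.0611, limma adjusted p = 0.0014) with 17 of 18 probe sets lower, and Hnrnpul2 by 0.28 (SE 0.0889, limma adjusted p = 0.0252) with 5 of 5 higher. The call of Hnrnpul2 ended without any of shTardbp 1, shTardbp 3, shLuciferase 1 or shLuciferase 2.

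Hnrnpl, which binds CA-rich RNA, and Hnrnpab, which is known for carrying mRNA in neurons, fell less. Hnrnpl had 10.70, 10.68, 10.61 and 10.56 in shTardbp, against 10.70, 10.93, 10.75 and 10.79 in shGFP and 10.93, 11.01 and 10.92 in shLuciferase. Its change was -0.23 (SE 0.0598, limma adjusted p = 0.00812). Hnrnpab had 11.67, 11.78, 11.87 and 11.88 in shTardbp, against 11.86 to 12.04 in shGFP and 12.08, 12.11 and 11.98 in shLuciferase. Its change was -0.21 (SE 0.0624, limma adjusted p = 0.0207), and its 12 probe sets changed by -0.63 to -0.03. The call ended with the median of the probe sets (-0.07, limma adjusted p = 0.558) and without shTardbp 1 or shTardbp 2. In both genes shGFP 1 overlapped the shTardbp arrays. The other 10 hnRNP genes, Hnrnph1, Hnrnpm and Hnrnpu among them, did not pass.

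Signal brightness differs between probes, so levels of different genes are not amounts. The 5 brightest of the 61 genes were Hnrnpab (mean 11.93), Sfrs2 (11.82), Hnrnpu (11.77), Hnrnph1 (11.37) and Hnrnpm (10.92). The 5 dimmest were Rbm35a (3.87), Rbm11 (3.94), Rbm47 (4.28), Rbm35b (4.84) and Rbm43 (5.22). Rbm35a, Rbm11 and Rbm47 lay below the 25th percentile of each array, at 4.46 to 4.57, on all 11 arrays, and the other 58 genes lay above it on all 11. Rbm35a and Rbm35b are the older names of Esrp1 and Esrp2, splicing regulators of epithelial cells. The differences of -0.03 to 0.01 seen for these 3 dim genes therefore describe signal near background.

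Without a test, by the order of the arrays alone, 1 of the 61 genes (Hnrnpul2) had all shTardbp arrays above all controls, beside 8.45% of all genes. All shTardbp arrays lay below all controls in 6 genes (Rbm10, Sfrs3, Rbm42, Rbm38, Hnrnpul1 and Sfrs1), beside 9.82% of all genes, or 18.3% for either direction. Of the 15 genes past the threshold, 9 overlapped.

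Each control was also taken alone, in 2 comparisons that share the same 4 shTardbp arrays. Against shGFP, 5 of the 61 genes were higher and 8 lower, or 21.3% in all, beside 27.9% of all genes (12.4% higher, 15.5% lower). Against shLuciferase, 3 were higher and 11 lower, or 23.0%, beside 26.1% of all genes (11.8% higher, 14.3% lower). Hnrnpul1, Rbm10, Rbm34, Rbm38, Rbm42, Sfrs10 and Sfrs3 were lower in both. Sfrs1 passed as lower against shGFP only, and Hnrnpab, Hnrnpl, Rbm19 and Sfrs16 against shLuciferase only.

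None of the 61 genes passed as higher against both controls taken alone. Sfrs5 (0.54, limma adjusted p = 0.0182), Rbm4b (0.56, limma adjusted p = 0.00293), Rbm14, Rbm27 and Hnrnpd passed against shGFP only. Tra2a (0.32, limma adjusted p = 0.0112), Rbm4 (0.38, limma adjusted p = 0.0134) and Rbm41 (0.37, limma adjusted p = 0.0265) passed against shLuciferase only. Whether a gene's 2 differences were unequal was not tested. Sfrs5 was 0.40 against shLuciferase and Rbm4 was 0.21 against shGFP, the same sign as in the comparison that passed. Hnrnpul2, at 0.28 and 0.29, passed against neither control alone.

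The control lines themselves differed in 3 of the 61 genes, 4.92%, beside 11.1% of all genes (6.26% higher and 4.82% lower in shGFP). Rbm14 was lower in shGFP, with 8.83, 8.76, 8.86 and 8.87, against 9.10, 9.15 and 9.22 in shLuciferase (-0.33, limma adjusted p = 0.00634). Rbm19, which acts in ribosome assembly, was also lower in shGFP (-0.44, limma adjusted p = 0.0109), at 6.51 to 6.81 against 6.88 to 7.27. Rbm43 was higher in shGFP (0.53, limma adjusted p = 0.0148), at 5.39 to 5.68 against 4.81 to 5.07. In shTardbp, Rbm14 was 0.27 above shGFP and -0.05 against shLuciferase, while Rbm19 was 0.07 against shGFP and -0.36 against shLuciferase.

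**Figure D3:**
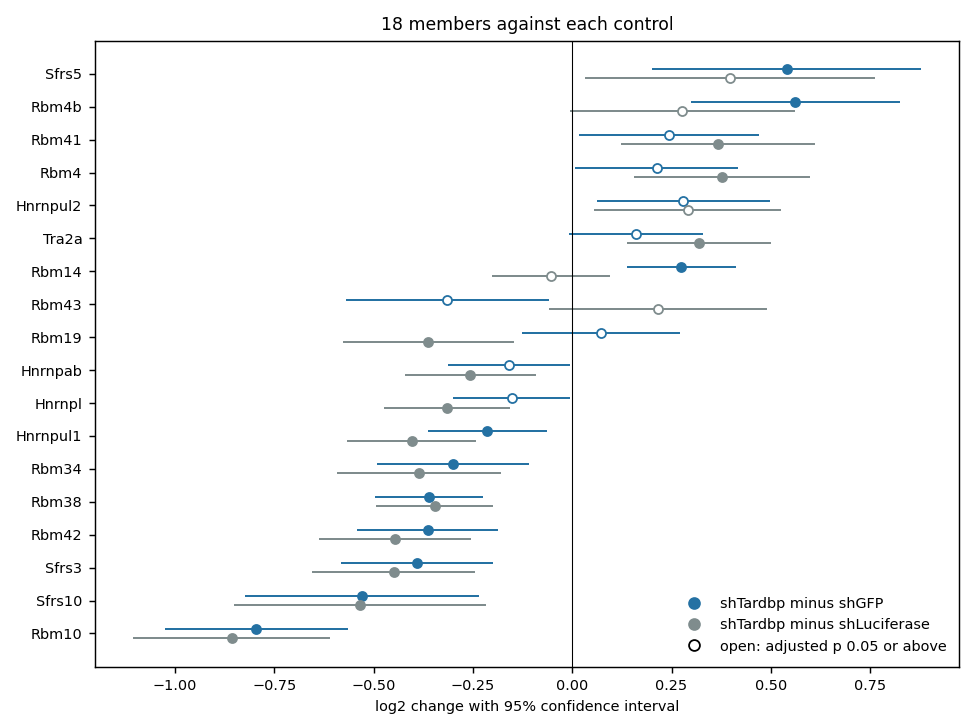
Log2 change with 95% confidence interval of the 15 genes past the threshold and of Rbm14, Rbm19 and Rbm43, which differed between the controls, in shTardbp minus shGFP (blue) and shTardbp minus shLuciferase (grey). Filled points have an adjusted p under 0.05. Rbm10, Sfrs10, Sfrs3, Rbm42, Rbm38, Rbm34 and Hnrnpul1 are filled and below 0 in both comparisons, and no gene is filled and above 0 in both.

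Whole-gene values average over probe sets, so single probe sets were also read. In 39 of the 722 probe sets all shTardbp arrays lay below all controls, and in 12 all lay above, beside 5.78% and 5.43% of all probe sets. These probe sets fell in 23 genes, led by Hnrnpul1 with 7 lower, Rbm38 and Rbm42 with 6 lower each, Hnrnpab with 4 lower and Tra2a with 4 higher.

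To separate a shift of the whole gene from a shift of 1 stretch, each probe set was set against the mean of the others of its gene. This relative value could be tested for 642 probe sets in 50 of the 61 genes. Of these, 9 passed (1.40%), 6 relatively higher and 3 lower, beside 0.875% of all probe sets tested, in 6 of the 50 genes, beside 7.42% of all genes tested. Against shGFP 8 passed, beside 0.646% of all probe sets, and against shLuciferase 3, beside 0.398%. Between the controls limma called 0 of the 642, with 35 at an unadjusted p under 0.05, beside 0.0472% of all probe sets called. The positions of probe sets were not used here, so none can be assigned to an exon.

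Sfrs10 held 3 of the 9. Its probe set 5072599 was at 7.16, 7.70, 7.72 and 7.39 in shTardbp, against 9.03, 8.73, 8.89 and 9.03 in shGFP and 8.64, 8.81 and 9.25 in shLuciferase. The groups stood almost a full log2 unit apart at their nearest arrays. The probe set fell by 1.42, and by 1.07 relative to the rest of the gene (SE 0.150, limma adjusted p = 0.00898). Probe set 5009394 gave the same picture, at 8.98 to 9.55 in shTardbp against 10.31 to 10.83 in the controls, with -0.88 relative to the gene (SE 0.134, limma adjusted p = 0.0135) and -0.81 against shLuciferase alone (limma adjusted p = 0.0685). The remaining one, 4699568, was relatively higher at 1.04 (limma adjusted p = 0.0286), but its own change was 0.33. Against shGFP alone the relative change was 0.80 (limma adjusted p = 0.138), and the relative values of shTardbp and the controls overlapped. Probe set 4699568 was set against a mean that includes the 2 that fell, so its call is not separate from theirs. Its own signal was dim and overlapped, at 4.63 to 5.31 in shTardbp against 4.20 to 5.09 in the controls.

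The 2 largest falls of Sfrs10 were thus in its brightest probe sets, and the whole-gene value of -0.53 averages over unequal parts. This was followed up, after the values were seen, with the dimmer and the brighter probe sets of each gene averaged apart, in 11457 genes with at least 6 probe sets. In Sfrs10 the 3 brighter probe sets averaged 8.04 ± 0.379 in shTardbp (SD, n = 4), against 9.01 ± 0.263 in shGFP (SD, n = 4) and 9.10 ± 0.0794 in shLuciferase (SD, n = 3). The 3 dimmer ones averaged 5.65 ± 0.212 in shTardbp (SD, n = 4), against 5.75 ± 0.262 in shGFP (SD, n = 4) and 5.66 ± 0.0948 in shLuciferase (SD, n = 3). The brighter ones changed by -1.01 and did not overlap, and the dimmer ones by -0.06. The difference of dimmer minus brighter was 0.95 (SE 0.113). Since the probe sets of Sfrs10 prompted the split, this describes them and adds no support.

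In Tra2a the gain lay in the dimmer probe sets. Its 8 dimmer ones averaged 8.53 ± 0.133 in shTardbp (SD, n = 4), against 7.98 ± 0.163 in shGFP (SD, n = 4) and 7.97 ± 0.164 in shLuciferase (SD, n = 3), and the shTardbp arrays, at 8.37 to 8.65, did not overlap the controls, at 7.79 to 8.21. Its 8 brighter ones averaged 10.52 ± 0.0921 in shTardbp (SD, n = 4), against 10.75 ± 0.174 in shGFP (SD, n = 4) and 10.44 ± 0.271 in shLuciferase (SD, n = 3), with complete overlap. The changes were 0.55 and -0.07, and the difference between them was 0.62 (SE 0.139, limma adjusted p = 0.0289). Against shLuciferase alone that difference was 0.47 (limma adjusted p = 0.254). Leaving out any of shTardbp 2, 3 or 4 or of shGFP 1 or 3 ended the call. Tra2a too had been seen to be uneven before the split, so its values describe its probe sets and add no support.

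Of the 47 genes of the 61 that could be split this way, 2 passed the threshold, Sfrs10 and Tra2a, both above 0 and both already seen to be uneven. That is 4.26%, beside 2.67% of all genes tested, or 1.38% above 0. Since the unevenness of both genes was known before the split, this share is no support either. The largest rise of any Tra2a probe set was 1.33, in 4400079, which had 7.47, 7.89, 8.46 and 7.97 in shTardbp, against 6.48, 6.13, 7.17 and 6.98 in shGFP and 7.28, 6.84 and 5.54 in shLuciferase. Its 2 brightest probe sets, 4780908 and 5595361, changed by -0.12 and -0.04.

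**Figure D4:**
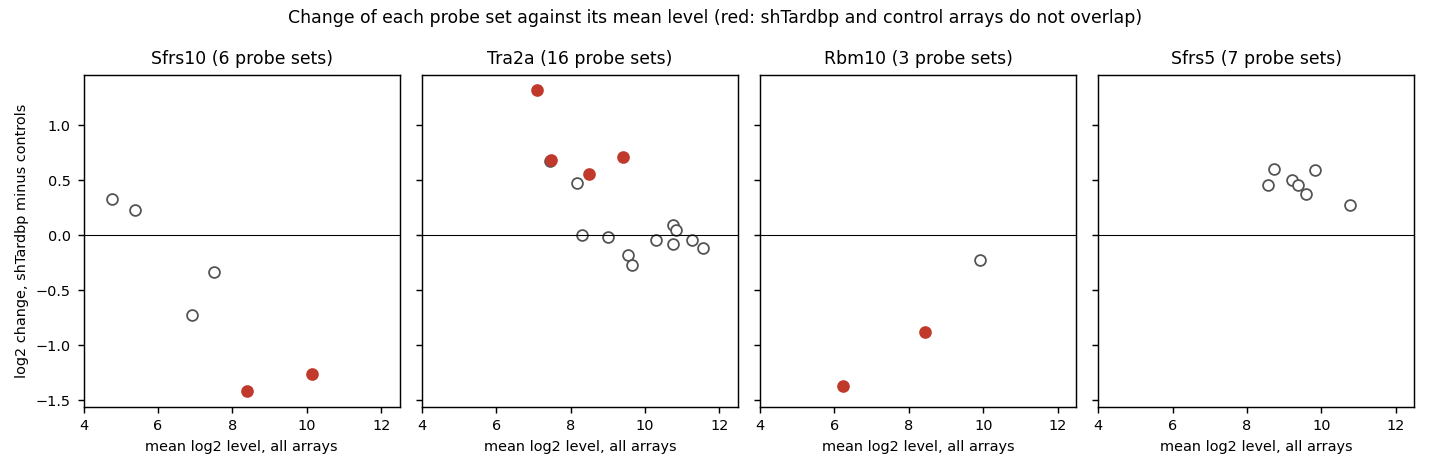
Change of each probe set (log2, shTardbp minus controls) against its mean log2 level over all arrays for Sfrs10 (6 probe sets), Tra2a (16), Rbm10 (3) and Sfrs5 (7). Red points have shTardbp and control arrays that do not overlap. The large falls of Sfrs10 lie in its brightest probe sets, the rises of Tra2a lie among its dim ones, and the 7 probe sets of Sfrs5 rose by similar amounts.

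Rbm10 differed from Sfrs10 in that its larger falls lay in its dimmer probe sets. Its dimmest probe set, 5101681, had 5.38, 5.45, 5.06 and 5.52 in shTardbp, against 6.65, 6.96, 7.12 and 5.95 in shGFP and 6.51, 7.35 and 6.47 in shLuciferase, a change of -1.37. Its middle one, 4771421, changed by -0.88, again without overlap. Its brightest, 5051166, changed by only -0.23 and overlapped, at 9.72 to 9.92 in shTardbp against 9.81 to 10.25 in the controls. Relative to the other 2 it was 0.90 higher (SE 0.142, limma adjusted p = 0.0164). With 3 probe sets in all, the size of the fall of Rbm10 depends on which of them is read.

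In Sfrs7, now Srsf7, an SR protein with a zinc knuckle, the whole-gene change of 0.02 averaged over parts that moved apart. Probe set 4806947 had 10.54, 10.32, 10.67 and 10.85 in shTardbp, against 9.95, 9.74, 9.90 and 10.22 in shGFP and 10.20, 9.997 and 10.01 in shLuciferase. It rose by 0.61 relative to the gene (SE 0.104, limma adjusted p = 0.0236), and probe set 4606100 by 0.65 (SE 0.117, limma adjusted p = 0.0287), with no overlap in either. Against 1 control alone 4806947 passed for shGFP but not for shLuciferase (limma adjusted p = 0.129), and 4606100 passed for neither (limma adjusted p = 0.0844 and 0.0685). In the same gene probe set 4875412 had all shTardbp arrays below all controls, at 11.32 to 11.61 against 11.65 to 11.92. The 13 probe sets of Sfrs7 ranged from -0.95 to 0.62.

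Rbm14 likewise had 1 probe set, 5078418, that stood apart from a gene with no call of its own. It had 7.73, 7.95, 7.57 and 7.86 in shTardbp, against 6.73, 6.74, 6.46 and 7.08 in shGFP and 7.33, 7.15 and 7.21 in shLuciferase, and was 0.75 higher relative to the gene (SE 0.118, limma adjusted p = 0.0160), though not against shLuciferase alone (0.66, limma adjusted p = 0.0910). In Rbm4, probe set 5014879 had 9.08, 9.19, 9.10 and 9.07 in shTardbp, against 8.45, 8.19, 8.34 and 8.66 in shGFP and 8.31, 8.57 and 8.60 in shLuciferase. It was 0.48 higher relative to the gene (SE 0.0981, limma adjusted p = 0.0487), with 0.32 against shLuciferase alone (limma adjusted p = 0.381). Of the 4 probe sets of Rbm4 it was the only one without overlap.

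The remaining relative call was in Tra2a, where probe set 5085131 was lower by -0.55 (SE 0.0957, limma adjusted p = 0.0260). Its shTardbp values of 9.40, 9.20, 9.58 and 9.59 lay below shGFP, at 9.87 to 10.09, and level with shLuciferase, at 9.37 to 9.51. Against shLuciferase alone the relative change was -0.35 (limma adjusted p = 0.317). As a group the relative calls depended on the setting: 3 passed with the replicate number as a block, 2 with the letter as a block, and 2 without shTardbp 3. With the median of the other probe sets as the reference in place of their mean, 2 of the 9 stood as before and 7 were weaker.

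**Figure D5:**
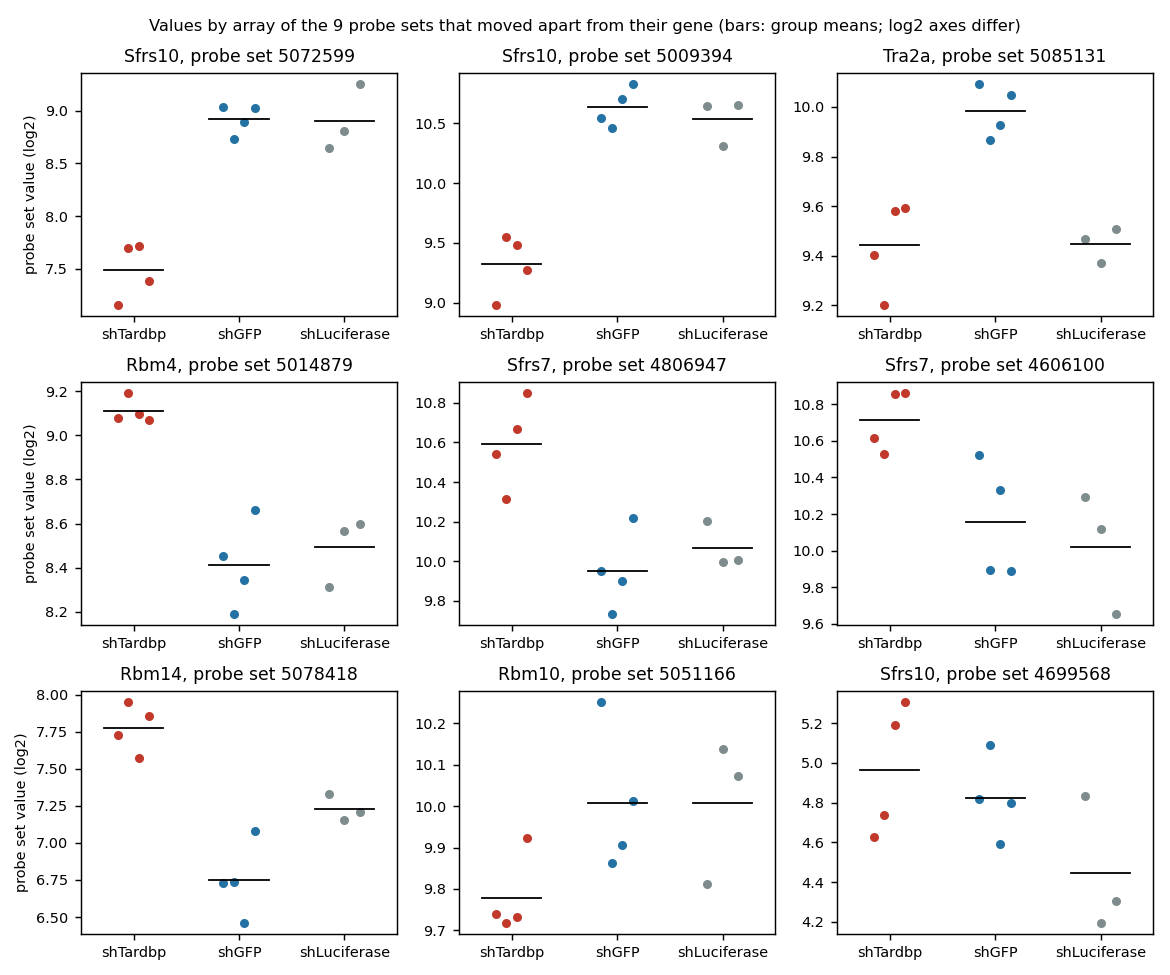
Log2 value by array of the 9 probe sets that changed relative to their gene, with shTardbp (n = 4) left of shGFP (n = 4) and shLuciferase (n = 3). Bars are group means, and the axes differ between panels. The first 2 Sfrs10 probe sets and those of Rbm4, Sfrs7 and Rbm14 show no overlap between shTardbp and the controls, and the other 3 do overlap.

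Genes that work with these proteins were read from 3 lists. Of 10 kinases and importers of SR proteins, 2 rose and 0 fell: Clk3 (0.30, limma adjusted p = 0.00163) and Clk2 (0.29, limma adjusted p = 0.0043), which phosphorylate the tails of SR proteins. Clk2 was 0.47 against shLuciferase (limma adjusted p = 0.000762) but 0.12 against shGFP (limma adjusted p = 0.316). Of 16 other hnRNP and hnRNP-like genes measured, 1 rose and 2 fell (18.8%). Between shGFP and shLuciferase 4 of these 16 passed, and 1 in each of the other lists, beside 11.1% of all genes. Matr3, a nuclear matrix protein mutated in some families with amyotrophic lateral sclerosis, rose by 0.21 (limma adjusted p = 0.0243; 0.16 against shGFP alone, limma adjusted p = 0.133), while the paraspeckle gene Pspc1 was -0.38 (limma adjusted p = 0.00196) and nucleolin, Ncl, -0.26 (limma adjusted p = 0.00234).

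Of 14 SR-related and exon junction genes, which include Rbm8a, 2 rose and 2 fell (28.6%). Rnps1, which joins SR proteins to the exon junction complex and helps splicing, averaged 11.44 ± 0.09995 in shTardbp (SD, n = 4) and 12.06 ± 0.120 in the controls (SD, n = 7), a change of -0.63 (SE 0.0736, limma adjusted p = 2.18e-05). Casc3, a core subunit of that complex, was -0.20 (limma adjusted p = 0.00867; -0.15 against shGFP alone, limma adjusted p = 0.0907). Luc7l2, a protein of the U1 particle, rose by 0.35 (limma adjusted p = 0.00139) and Srrm2, a scaffold of nuclear speckles, by 0.21 (limma adjusted p = 0.0184; 0.15 against shLuciferase alone, limma adjusted p = 0.186). None of the 3 lists had a share of calls above the 30.5% of all genes.

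Markers of other cells moved with the hairpin in part. Of 4 fibroblast markers, all above the 25th percentile, the mean level ran from 5.51 to 5.69 in shTardbp and from 6.12 to 6.36 in the controls. Of these 4, Dcn (-1.61, limma adjusted p = 2.77e-08) and Pdgfra (-0.92, limma adjusted p = 1.31e-06) were lower, and Col1a1 and Col1a2 did not pass. Slc18a3, the vesicular acetylcholine transporter of motor neurons, was 0.63 higher (limma adjusted p = 0.000129), and none of the other 13 neuronal markers passed. Mbp of myelin (0.24, limma adjusted p = 0.0124) and Pecam1 of endothelium (0.41, limma adjusted p = 0.00706) were also higher, and no marker of astrocytes, microglia or muscle passed. The other measured markers of myelin and endothelium, Mog (0.10), Cdh5 (0.04) and Kdr (0.04), did not pass. The part of these differences between the lines in the changes of the 61 genes was not tested.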

How the data were processed

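Expression was measured on 11 Affymetrix mouse whole-transcript arrays of NSC34 lines. The deposited table holds log2 expression values for 194293 probe sets, and per the submitters' processing notes Partek and RMA made them, with no version named. How background was corrected, which settings were used and on which genome build the annotation rests is not given in the sources used here. RMA usually brings all arrays to one distribution, so a change is relative to the whole array. Only the 179496 probe sets with 1 symbol in the platform annotation were used, leaving out 1328 with several and 13469 with none.

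Probe sets of a gene were averaged on the log2 scale. With limma 3.58.1 under R 4.3.3, lmFit and eBayes fitted the 3 groups over 15803 genes, with Benjamini-Hochberg adjustment of p-values across the whole table. The main contrast set shTardbp against the average of the shGFP and shLuciferase means. Errors of log2 changes are standard errors (SE), and intervals are 95% intervals of the fit. For relative probe set changes, each probe set minus the mean of the others of its gene was fitted the same way, with a variance of its own. This covered 101753 probe sets in 7531 genes: probe sets with a mean level over the 25th percentile, where a gene of more than median level kept at least 3 of them. Pairs of relatives were tested by exact permutation of the 4 shTardbp and 7 control arrays (330 splits). The scripts were first tested on data with known answers.

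The genes, the lists and the naming rule were chosen with earlier results of these data known. The text names the 12 largest rises and falls past the threshold, the largest differences between controls, the 5 brightest and 5 dimmest genes, the classical SR genes, listed relatives, 1 probe set for each of the 8 genes with the largest relative changes and up to 4 genes of each list. Further names, such as Sfrs12ip1, and further probe sets were chosen after their values were seen. Symbols were updated through the RefSeq gene table, used only for names and neighbours. Promoters are RefSeq sequences of GRCm38.p6.

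Same-numbered arrays of different groups correlated from -0.06 to 0.26, 5 of 8 pairs above 0.1. Those with different numbers ranged from -0.29 (shGFP 2 with shLuciferase 4) to 0.29 (shTardbp 4 with shGFP 3). These values do not settle whether equal numbers mark pairs. The main fit left the number out, and an alternative fit used it as a block. The alternatives were other probe set summaries, filters, scalings, weights, priors and blocks, and leaving out each array. The number of arrays limits the precision.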

Additional observations from a re-analysis of the deposited data

Results flagged for a closer look

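Dixon's test for 1 array far from the rest of its group was applied to Tardbp and the 61 genes in the 2 groups of 4 arrays. It marked 6 of 124 groups at the 95% level, and chance marks about 1 in 20. Rbm28 stood at 7.78 in shGFP 2, against 7.97 to 7.98 in the other shGFP arrays (gap over range 0.956). Sfrs12 stood at 8.08 in shGFP 2, against 8.69 to 8.75 (0.919), and Sfrs11 at 9.40 in shGFP 2, against 9.75 to 9.79 (0.890). Rbm8a, with 1 probe set, stood at 8.58 in shGFP 1, against 9.42 to 9.54 (0.881). Sfrs3 stood at 10.04 in shGFP 1, against 10.28 to 10.32 (0.843), which makes it the control nearest to the shTardbp arrays. Rbm10 stood at 8.22 in shGFP 5, against 8.53 to 8.57 (0.895), and still above all shTardbp arrays. The 6 marks are low values in shGFP arrays, 3 in shGFP 2, 2 in shGFP 1 and 1 in shGFP 5.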

How the results depend on the processing

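Of the 15 genes called in shTardbp against the control average, Rbm10 and Rbm38 passed under all 20 alternatives. Hnrnpl, Hnrnpul1, Rbm34, Rbm42, Rbm4b, Sfrs10 and Sfrs3 passed under all but the code letter as a block. Array weights raised the count to 23 against the control average, beside 36.6% of all genes. They raised it to 24 from 14 against shLuciferase and to 9 from 3 between the controls. The letter block gave 3 calls against the control average, beside 15.9% of all genes. It gave 2 from 13 against shGFP, 3 against shLuciferase and 5 between the controls. It also left 2 of the 9 relative probe set calls and 1 of the 2 genes whose dimmer and brighter probe sets parted, and took Tardbp to -0.29 (limma adjusted p = 0.173). The median of the probe sets gave 8 against shLuciferase. The replicate block left the count of genes at 15, and 3 relative probe set calls. Setting each probe set against the median of the others left 2 of the 9 relative calls as before and made 7 weaker. limma's diffSplice, which shares a variance within a gene, gave 22 such calls. Of the 9 relative calls of the main fit, 6 stood under diffSplice and 3 were weaker. On simulated data it called 349 of 98686 unchanged probe sets, against 5 for the main fit, so the 22 are not an equal alternative. Of 200 probe sets simulated to change by a full log2 unit, diffSplice called 187 and the main fit 150. The main fit can thus miss such changes. Leaving out 1 array at a time gave 11 to 21 genes against the control average, beside 25.9% and 31.5% of all genes. Against shGFP it gave 9 to 15. It gave 7 to 16 against shLuciferase (7 without shLuciferase 1) and 2 to 5 between the controls (5 without shLuciferase 4). It gave 2 to 9 relative probe set calls (at most 5 without any of shTardbp 1 to 4, shGFP 3 or shLuciferase 2), 1 to 4 genes with parted probe sets (1 without any of shTardbp 2, 3 or 4 or shGFP 1 or 3, and 4 without shLuciferase 4) and a Tardbp change of -0.44 to -0.37. No gene named in the text changed sign past the threshold under these alternatives. The causes of these shifts were not tested. Direction of change was compared only for values past the threshold, and dim probe sets limit what can be seen in Rbm11, Rbm35a and Rbm47.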

Other observations

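Some genes without a whole-gene call had probe sets that differed widely among themselves, and these were picked after their values were seen. The 22 probe sets of Rbm28, whose product is a nucleolar protein, changed by -0.76 to 0.78, and those 2 without overlap between shTardbp and the controls were both lower. The 27 probe sets of Rbm5 changed by -0.41 to 0.79 with none free of overlap. By contrast the 7 probe sets of Rbm39, a coactivator and splicing factor close to U2AF, all changed by -0.28 to -0.16, and the gene value of -0.22 (limma adjusted p = 0.188) missed the threshold.

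Of the 6 genes with 1 or 2 probe sets, 3 were lowest in shGFP 1, while Hnrnph2, Rbm4b and Rbm12b were not. Hnrnpc, whose protein packages nascent transcripts, was at 7.43 in shGFP 1 against 8.65 to 9.43 in the other controls. Rbm8a, a core subunit of the exon junction complex, was at 8.58 in shGFP 1 against 9.37 to 9.72 in the other controls. Rbm7, a part of the nuclear exosome targeting complex, was at 6.21 in shGFP 1 against 6.81 to 7.53. None of these 3 genes passed in any comparison.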
